A study of Mus musculus with 8 samples.

Results

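The immediate early transcription factors described here are 10 genes, Fos, Fosb, Fosl2, Jun, Junb, Egr1, Egr2, Egr3, Egr4 and Npas4. They were chosen by name, as the non-control probes whose gene name in the scanner files equals one of these symbols, which gave 11 probes among the 39429 on the array, or 10 genes of 30139. Their RNA was measured in whole hippocampus of C57BL/6 mice aged 3 to 6 months. Conditional knockout mice (CKO) were Ctcf loxP/loxP;Camk2a-Cre, and controls (WT) carried the same Ctcf loxP/loxP alleles with no Cre. Camk2a-Cre recombines mainly in excitatory forebrain neurons, so other hippocampal cells keep Ctcf, the gene of a DNA-binding protein that holds chromatin loops at their anchors. Each sample was a pool of 3 mice, with 3 pools per genotype, and pool 1 of each genotype was measured on 2 arrays. Pool 1 was made of 2 females and 1 male of 19 to 23 weeks in either genotype, pool 2 of 3 females of 18 to 19 weeks, and pool 3 of 3 males of 15 to 17 weeks. All mice had been through behavioural tests (open field, a sensorimotor battery, water maze and social approach), and the sources used here give no interval between the last test and tissue collection. Cre was present in CKO mice only, so its own effects and those of Ctcf loss cannot be told apart.

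Immediate early genes are transcribed within minutes of synaptic activity or growth factor signals, from factors already present in the cell and without new protein synthesis. Fos and Jun proteins pair through leucine zippers to form AP-1, Egr proteins are zinc-finger activators that bind GC-rich sites, and Npas4 is a basic helix-loop-helix PAS factor induced by calcium entry through depolarisation. In hippocampus the RNA of many, though not all, of them is low at rest, rises briefly in activated neurons and falls again. Such RNA is widely used to mark recent neuronal activity.

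Values are log2 signal relative to the 75th percentile of the same array, which allows a probe to be compared between arrays but not with another probe. Of the 10 genes, 9 passed the filter on dim probes (detected well above background on all arrays of CKO, of WT or of both), as did 18334 of all 30139 genes. Egr2 and a second Fosl2 probe did not pass. Egr3 passed through the CKO arrays alone, being well above background on all 4 of these and 3 of 4 of the WT ones, so counts over the 9 genes include 1 that had to be bright in CKO. Spots well above background made up 59.2% to 66.0% of an array, with 0 saturated. Dimmest were the second arrays of pool 1, with 75th percentiles of 2883 (CKO) and 2112 (WT) against 3949 or more on the others. The targeted gene, Ctcf, was at 0.18, 0.16 and 0.05 in CKO pools 1, 2 and 3, against 0.83, 1.12 and 1.04 in WT pools 1, 2 and 3, a difference of -0.87 (SE 0.13). The limma adjusted p was 0.142, and 0.0294 with pool number as a block. The sources used here do not place that probe relative to the floxed exons. Of the markers of hippocampal neurons, C1ql2 (dentate granule cells) and Wfs1 and Neurod6 (pyramidal cells) were well above background on all 4 CKO and all 4 WT arrays, and the granule marker Prox1 did not pass the filter.

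The Fos and Npas4 signals in CKO pools 1 and 3 were high, and those in CKO pool 2 lay within or below the WT range. 7 members showed that arrangement, with CKO pools 1 and 3 above all WT pools and CKO pool 2 not, namely Fos, Fosb, Fosl2, Junb, Egr1, Egr4 and Npas4. That is 7 of the 9 that passed the filter, beside 2.67% of all genes tested, or 8.38% if CKO pool 2 may lie anywhere, and the arrangement was looked at after the values had been seen. In none of the 9 did all 3 CKO pools lie above all 3 WT pools, an arrangement of 5.72% of all genes. Across the 3 pools per genotype, 0 of the 9 passed the limma test at a Benjamini-Hochberg adjusted p of 0.05, a threshold passed by 0.0273% of genes (5 of 18334). In whole tissue, a change in the number of cells that express a gene and a change in RNA per cell cannot be told apart.

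**Figure D1:**
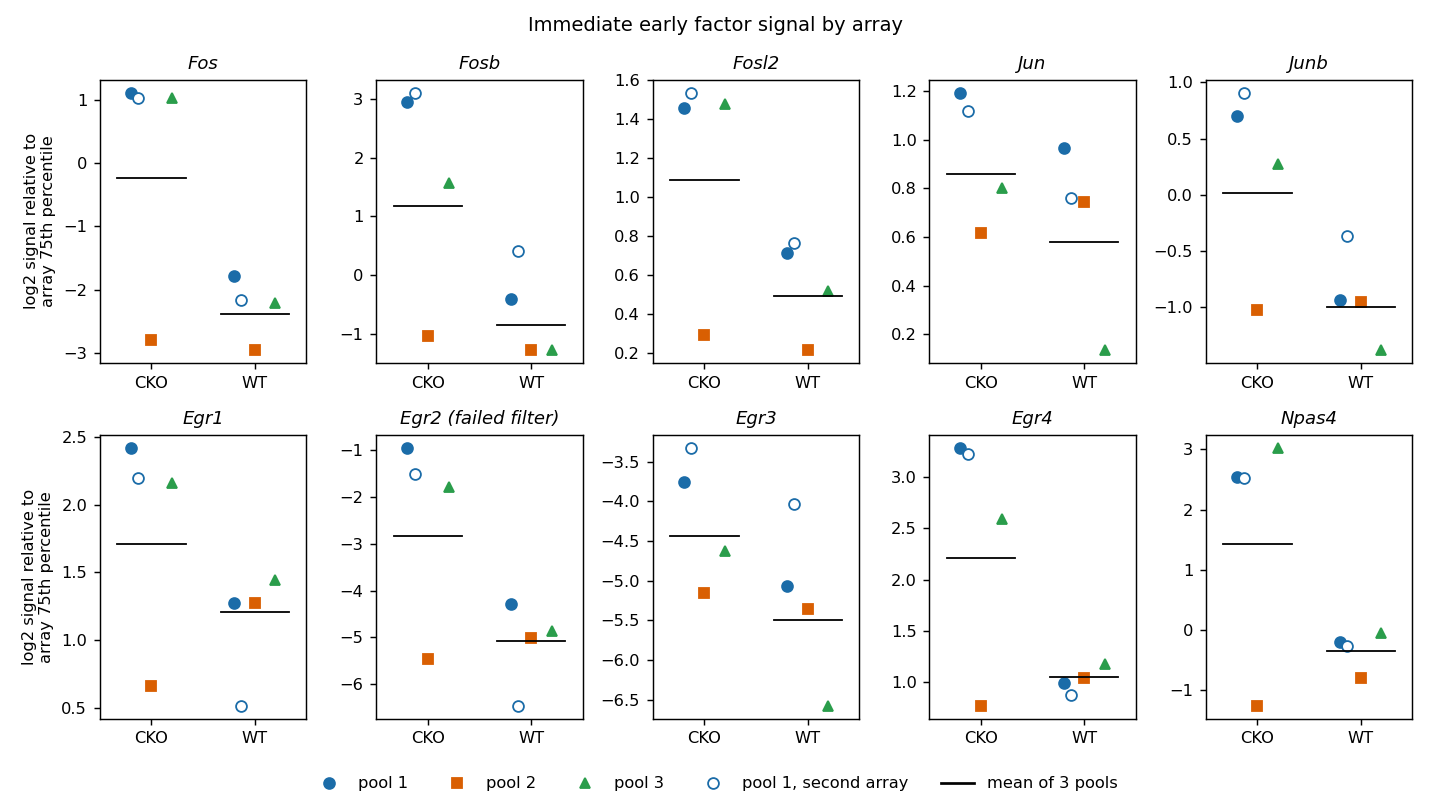
Signal of each member on each array (vertical axis, log2 relative to the array's 75th percentile, with its own range in each panel) for CKO arrays, left, and WT arrays, right. Symbols mark the pool, the open symbol is the second array of pool 1, and the line is the mean of 3 pools. In 7 of the 9 panels that passed the filter, CKO pools 1 and 3 lie above every WT pool and CKO pool 2 does not.

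Fos encodes the founding AP-1 partner of Jun proteins. It was at 1.07, -2.79 and 1.02 in CKO pools 1, 2 and 3, against -1.97, -2.96 and -2.21 in WT pools 1, 2 and 3. CKO pools 1 and 3 stood far above the other 4 pools, and CKO pool 2 fell inside the WT range. The Fos probe was printed at 10 spots on each array, and the SD between those spots was 0.03 to 0.09. The mean difference, CKO minus WT, was 2.15 (SE 0.92, n = 3 pools each), with a limma p of 0.046 before and 0.906 after adjustment. With pool number as a block the adjusted p was 0.083, which did not change the call.

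Fosb encodes an AP-1 subunit whose truncated form, ΔFosB, accumulates with repeated stimulation. It was at 3.03, -1.05 and 1.56 in CKO pools 1, 2 and 3, against -0.01, -1.28 and -1.27 in WT pools 1, 2 and 3. CKO pools 1 and 3 were above every WT pool, and CKO pool 2 lay between WT pools. The mean difference was 2.03 (SE 0.88), with a limma adjusted p of 0.913. The 2 arrays of WT pool 1 were 0.82 apart on this probe, against 0.16 for those of CKO pool 1.

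Fosl2, which encodes the Fos-related factor Fra-2, was at 1.50, 0.29 and 1.48 in CKO pools 1, 2 and 3, against 0.74, 0.22 and 0.52 in WT pools 1, 2 and 3. The arrangement was that of Fos on a smaller scale, with a mean difference of 0.60 (SE 0.31, limma adjusted p = 0.986). The other Fosl2 probe was well above background on 0 of 8 arrays and gives no level.

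The Jun genes encode the obligate partners of Fos proteins. Junb was at 0.81, -1.02 and 0.27 in CKO pools 1, 2 and 3, against -0.65, -0.95 and -1.38 in WT pools 1, 2 and 3. CKO pool 2 again lay inside the WT range. The mean difference was 1.01 (SE 0.42), with a limma adjusted p of 0.892. Jun, encoding c-Jun, was at 1.16, 0.62 and 0.80 in CKO pools 1, 2 and 3, against 0.86, 0.74 and 0.13 in WT pools 1, 2 and 3. Here the genotypes overlapped, with CKO pool 1 alone above every WT pool. Its mean difference of 0.28 (SE 0.22) was the smallest of the 9, with a limma 95% interval from -0.23 to 0.78 and an adjusted p of 0.999.

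Egr1 encodes Zif268, a factor required for late phases of hippocampal plasticity. It was at 2.31, 0.66 and 2.16 in CKO pools 1, 2 and 3, against 0.90, 1.27 and 1.44 in WT pools 1, 2 and 3. CKO pool 2 was below every WT pool, and the mean difference was 0.51 (SE 0.39, limma adjusted p = 0.999). The arrays of WT pool 1 were 0.76 apart. Egr4, the family member first isolated as NGFI-C, was at 3.25, 0.77 and 2.59 in CKO pools 1, 2 and 3, against 0.94, 1.04 and 1.18 in WT pools 1, 2 and 3. The WT pools were close together (SD 0.12) and the CKO pools were spread widely (SD 1.28), with CKO pool 2 below all WT pools. Its mean difference was 1.15 (SE 0.52, limma adjusted p = 0.933).

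Egr3, an Egr factor that acts downstream of Egr1 in some neurons, was dim, at -3.54, -5.15 and -4.63 in CKO pools 1, 2 and 3, against -4.55, -5.36 and -6.58 in WT pools 1, 2 and 3. Only CKO pool 1 was above every WT pool, and the signal of WT pool 3 was not well above background. Its mean difference was 1.05 (SE 0.56, limma adjusted p = 0.987). Egr2, known as Krox20 and required for hindbrain patterning and myelination, did not pass the filter. It was at -1.24, -5.47 and -1.80 in CKO pools 1, 2 and 3, against -5.37, -5.01 and -4.87 in WT pools 1, 2 and 3. In CKO its probe cleared the background on 3 of 4 arrays, all but that of pool 2, and in WT on 3 of 4, all but the second of pool 1. In the fit with no filter on dim probes its difference was 2.25 (SE 0.86, limma adjusted p = 0.964).

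Npas4 regulates inhibitory synapses and Bdnf in excitatory neurons. It was at 2.54, -1.26 and 3.02 in CKO pools 1, 2 and 3, against -0.23, -0.79 and -0.04 in WT pools 1, 2 and 3. Its CKO pools had an SD of 2.34, against 0.39 in WT pools, and CKO pool 2 was below every WT pool. The mean difference was 1.79 (SE 0.95, limma adjusted p = 0.987).

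The comparison can be set out by pool number, since pools of the same number had the same sex and age makeup in both genotypes. Each number holds 1 pool per genotype, so these differences carry no test. In pool 1 all 9 differences, CKO minus WT, were positive, as were 45.6% of all genes tested. Their median was 1.46, beside -0.04 over all genes tested. The fold was 8.22 for Fos, 8.17 for Fosb, 6.80 for Npas4, 4.96 for Egr4, 2.75 for Junb and 2.66 for Egr1. In pool 2 the median was -0.06, beside 0.05 over all genes, with 4 positive and 5 negative differences and none over 1 (a fold of 2). Of all genes, 57.9% were positive in pool 2 and 1.17% were over 1. The pool 2 folds were 1.12 for Fos, 1.18 for Fosb, 0.73 for Npas4, 0.83 for Egr4, 0.96 for Junb and 0.65 for Egr1. In pool 3 all 9 differences were again positive, as were 46.3% of all genes, with a median of 1.65, beside -0.03 over all genes. The pool 3 folds were 9.40 for Fos, 8.35 for Npas4, 7.14 for Fosb, 3.14 for Junb, 2.67 for Egr4 and 1.64 for Egr1. None is given for Egr3, whose signal in WT pool 3 was not well above background. 6 of the 9 (Fos, Fosb, Junb, Egr3, Egr4 and Npas4) had a difference over 1 in both pools 1 and 3, as did 0.344% of all genes, with that of Egr3 in pool 3 resting on the dim WT signal. Among the 18334 genes ordered from the highest difference down, Fos was number 8, Fosb number 9 and Npas4 number 15 in pool 1, and Fos was number 5, Npas4 number 8 and Fosb number 9 in pool 3.

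**Figure D2:**
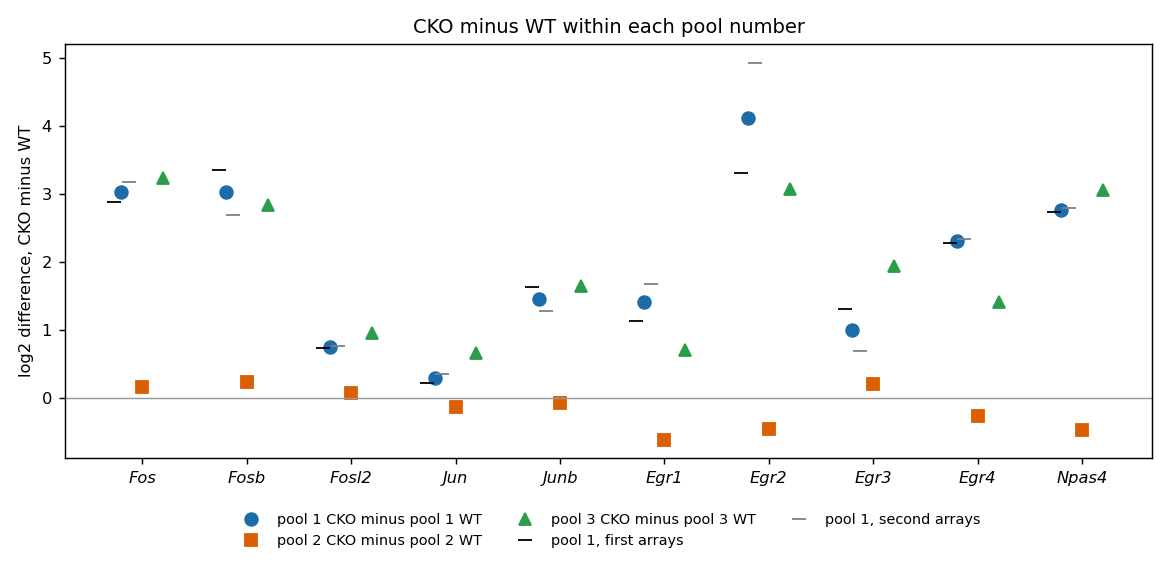
Difference in log2 signal between the CKO and WT pools of the same number (vertical axis) for each of the 10 genes. Circles are pool 1, squares pool 2 and triangles pool 3, and the dashes are the first and second arrays of pool 1 taken alone. The signal was not well above background for Egr2 in CKO pool 2 and on the second array of WT pool 1, nor for Egr3 in WT pool 3. The squares of pool 2 lie between -0.61 and 0.24, and the Fos and Npas4 differences of pools 1 and 3 lie between 2.77 and 3.23.

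The 2 arrays of pool 1 gave the same directions. On the first arrays the difference, CKO minus WT, was 2.89 for Fos, 3.36 for Fosb, 1.64 for Junb, 2.28 for Egr4 and 2.73 for Npas4. On the second arrays it was 3.19 for Fos, 2.70 for Fosb, 1.27 for Junb, 2.34 for Egr4 and 2.80 for Npas4. The medians over the 9 genes were 1.64 on the first arrays and 1.68 on the second. Pool 2 was on slide 1 together with the first arrays of pool 1, and pool 3 was on slide 2 together with the second ones. Both slides thus carried both genotypes, and on slide 1 the high CKO pool 1 and the low CKO pool 2 stood side by side. Within slide 1 the difference was 1.53 for Fos (SE 1.12) and 1.14 for Npas4 (SE 1.05), and within slide 2 it was 3.21 for Fos (SE 0.27) and 2.93 for Npas4 (SE 0.27). With slide as a block and pool as a random block, it was 2.21 for Fos (SE 0.89) and 1.86 for Npas4 (SE 0.88), with limma adjusted p of 0.969 for Fos and 1.00 for Npas4.

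Over all 3 pools, the 9 differences ran from 0.28 for Jun to 2.15 for Fos, with a median of 1.05, beside -0.003 over all genes, and all 9 were positive, as were 49.4% of all genes. Without Egr3 and other genes dim on any array, the median was 1.08. 3 of the 9 (Fos, Fosb and Junb) had an unadjusted limma p under 0.05 in the higher direction, beside 2.91% of all genes, and 0 in the lower direction, beside 2.56%. With pool number as a block, 7 of the 9 had an unadjusted p under 0.05 (4.57% of all genes) and 0 had an adjusted p under 0.05 (0.562% of all genes, or 103). The standard error of Fos was 0.46 with the block and 0.92 without it, and that of Npas4 was 0.51 with and 0.95 without. CKO pool 2 decided the call of 2 of the 9 genes. With it left out, Fos (3.43, SE 0.30) and Npas4 (3.13, SE 0.26) passed, each with a limma adjusted p of 0.0294, where 0.0218% of genes passed. Of the other 7, which did not pass, Egr4 then had the lowest adjusted p, 0.071. The share of genes called over the whole array was likewise set by few arrays, being 0.0273% of genes with all arrays, 0.584% without the second array of WT pool 1, 0.665% with first arrays alone, 0.115% without WT pool 1, 0.0109% without CKO pool 1, 0% without CKO pool 3 and 0% without WT pool 3. In these other settings 0 of the 9 members passed.

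**Figure D3:**
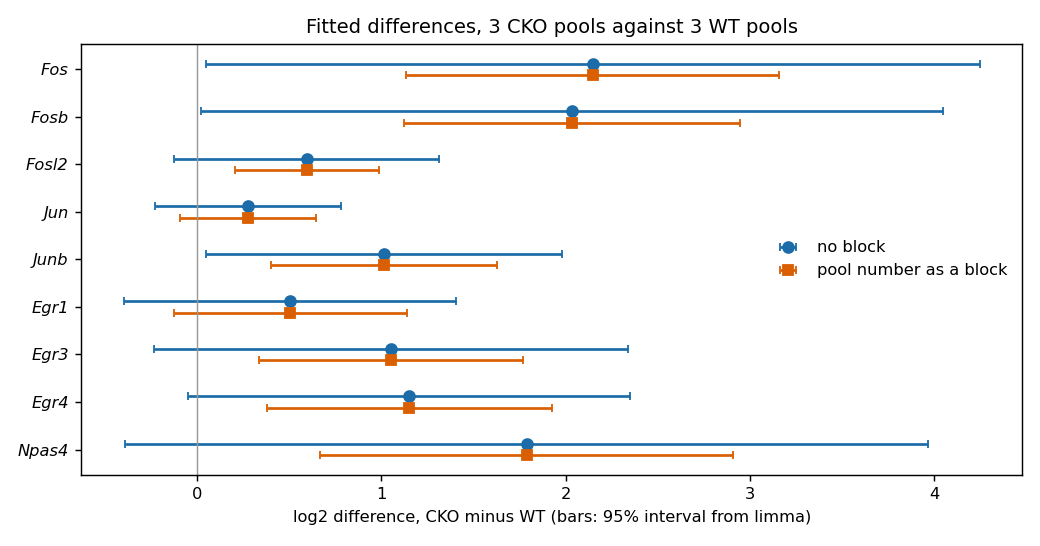
Difference in log2 signal, CKO minus WT, fitted over 3 pools per genotype (horizontal axis), with 95% intervals from limma, for the 9 genes that passed the filter. Circles are the fit with no block and squares the fit with pool number as a block. The Fos interval runs from 0.05 to 4.25 with no block and from 1.14 to 3.16 with the block.

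Across the 6 pools, Fos, Fosb, Fosl2, Junb, Egr4 and Npas4 moved most alike, and Jun and Egr3 followed least. Each of the 9 genes was centred on its mean over pools, and the mean of the 9 was correlated with each gene, which it contains. Pearson's r was 0.98 for Fos, Fosb and Junb, 0.97 for Fosl2 and Egr4, 0.95 for Npas4, 0.88 for Egr1, 0.78 for Egr3 and 0.70 for Jun. These are descriptions over 6 pools in which CKO pools 1 and 3 stand apart, and arrays of one pool number share a slide or both slides. The share of all genes that reach such an r was not counted. Among 843 genes on none of the lists below with an SD over pools of at least 0.5, the 6 most like the members' mean were Prdm12, Arl4d, Sertad1, Errfi1, Pcdh8 and Fndc9, with r from 0.95 to 0.97. Prdm12 encodes a zinc-finger transcriptional regulator, Arl4d a small GTPase, Sertad1 a protein that binds cyclin-dependent kinase 4, Errfi1 an inhibitor of the EGF receptor, and Pcdh8 a protocadherin. The difference of Arl4d, CKO minus WT, was 0.97 in pool 1, 0.12 in pool 2 and 1.27 in pool 3. That of Pcdh8 was 1.44 in pool 1, 0.29 in pool 2 and 1.14 in pool 3. Errfi1 differed by 1.07 in pool 1, -0.07 in pool 2 and 0.55 in pool 3. Prdm12 cleared the background on 4 of 4 CKO arrays and 2 of 4 WT arrays.

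The DNA before the start sites of the members is shown because most of them moved alike and because some elements known to drive such genes lie there. Elements more than 250 bases before the start were not searched, so a motif not found here may lie further upstream. Only exact matches to the motifs below were counted, so it may also lie in the window in a variant form. RefSeq (GRCm38.p6) gave a promoter entry for 8 of the 10. The 250 bases before the start were searched on both strands for the CRE TGACGTCA, its core TGACG, the AP-1 site TGANTCA, the Egr site GCGNGGGCG, the TATA box TATAAA and the CArG box bound by serum response factor. The core lies within the full CRE and was counted there too. For the 5 members whose window lies outside the annotated gene, the window is printed 5′ to 3′ on the gene's strand, with matches in capitals. The windows are chr12:85473640-85473889 (plus strand) for Fos, chr5:32136222-32136471 (plus) for Fosl2, chr4:95052223-95052472 (minus) for Jun, chr8:84978749-84978998 (minus) for Junb and chr6:85513590-85513839 (minus) for Egr4.
Fos: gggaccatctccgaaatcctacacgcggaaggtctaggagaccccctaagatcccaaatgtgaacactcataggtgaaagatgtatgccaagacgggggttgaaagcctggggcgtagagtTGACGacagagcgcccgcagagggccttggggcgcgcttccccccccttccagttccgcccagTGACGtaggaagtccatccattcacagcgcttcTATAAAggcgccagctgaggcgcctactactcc
Fosl2: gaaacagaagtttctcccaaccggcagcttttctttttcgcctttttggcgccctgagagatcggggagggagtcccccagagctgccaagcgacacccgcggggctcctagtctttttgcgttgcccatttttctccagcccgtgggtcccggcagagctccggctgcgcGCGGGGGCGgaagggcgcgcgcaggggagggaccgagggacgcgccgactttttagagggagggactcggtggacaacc
Jun: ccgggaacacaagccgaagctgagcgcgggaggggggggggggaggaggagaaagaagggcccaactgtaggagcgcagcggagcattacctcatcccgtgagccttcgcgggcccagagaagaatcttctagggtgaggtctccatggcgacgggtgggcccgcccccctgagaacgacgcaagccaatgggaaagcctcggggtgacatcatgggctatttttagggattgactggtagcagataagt
Junb: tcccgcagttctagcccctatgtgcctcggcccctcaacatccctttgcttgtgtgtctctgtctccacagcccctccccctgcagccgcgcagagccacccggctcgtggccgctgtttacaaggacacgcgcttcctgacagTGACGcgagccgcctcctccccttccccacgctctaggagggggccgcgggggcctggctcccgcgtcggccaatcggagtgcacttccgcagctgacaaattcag
Egr4: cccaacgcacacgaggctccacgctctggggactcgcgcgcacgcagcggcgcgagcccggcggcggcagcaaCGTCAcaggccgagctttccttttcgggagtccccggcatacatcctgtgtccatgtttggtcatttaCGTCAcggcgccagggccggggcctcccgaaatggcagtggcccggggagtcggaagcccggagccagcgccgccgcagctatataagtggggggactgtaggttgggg

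In Fos the capitals mark CRE cores starting 129 and 66 bases before the start and a TATA box starting 33 bases before it. In Fosl2 they mark an Egr site starting 79 bases before the start. Junb had a CRE core starting 106 bases before the start, and Egr4 had its pair, on the other strand (CGTCA), starting 177 and 109 bases before it. The Jun window held no exact match to any of the 6 motifs. It holds tgacatca, a form near the CRE that these patterns do not cover.

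For Fosb, Egr2 and Npas4 the window overlaps an annotated transcript of the gene, and 30 bases around the matches are shown. These are chr7:19310082-19310111 (minus) for Fosb, chr10:67537793-67537822 (plus) for Egr2 and chr19:4990129-4990158 (minus) for Npas4.
Fosb: tgcgggTGACGcaagcGCGGGGGCGggtcc
Egr2: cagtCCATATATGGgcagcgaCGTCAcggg
Npas4: ccgttcgaCGTCAcgggaTGACGtcggaag

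The Fosb stretch holds a CRE core and an Egr site, that of Egr2 a CArG box and a CRE core, and that of Npas4 a CRE core on each strand. Of several Egr2 entries, the first with this CArG box was taken after the sequences had been seen. The CRE core was found for 6 of the 8 genes (Fos, Fosb, Junb, Egr2, Egr4 and Npas4). It was in 17.8% of all 32851 RefSeq windows of the same length. A gene was counted if any of its windows matched, and some Egr2 windows held no CRE core or no CArG box. The gene counts and the window shares thus count different units. The Egr site was in 2 of 8 (Fosb and Fosl2, 4.70% of all), the exact string TATAAA in 1 of 8 (12.4%) and the CArG box in 1 of 8 (1.47%). Other forms of the TATA box, such as the tatataa in the Egr4 and Npas4 windows, were not counted. Exact matches to the full CRE and to the AP-1 pattern were in 0 of 8 (1.55% of all for the CRE and 6.75% for the AP-1 site). A match of letters is a description and no measurement of binding.

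Other genes of the same pathway were read as lists. The counts of each list below are to be read beside the shares over all genes tested. Some lists include genes that passed the filter through the CKO arrays alone, which had to be bright in CKO. Of all genes, 49.4% were higher in CKO. An unadjusted limma p under 0.05 was found for 2.91% in the higher and 2.56% in the lower direction. By limma 0.0273% passed without the block and 0.562% with it. Among 12 other AP-1, ATF and Maf family members, 11 were measured, of which 7 were higher and 4 lower in CKO, with a median difference of 0.02 beside -0.003 over all genes. By limma 0 of the 11 passed without the block and 1 with it, and 2 had an unadjusted p under 0.05. Atf3, a stress-induced repressor of the ATF family, was at -0.69, -3.13 and -1.78 in CKO pools 1, 2 and 3, against -4.19, -4.97 and -4.87 in WT pools 1, 2 and 3. It was higher in all 3 CKO pools than in any WT pool, with a WT signal well above background on 2 of 4 arrays. Its difference was 2.81 (SE 0.55), with a limma adjusted p of 0.191, and of 0.005 with pool number as a block. Maff, a small Maf protein that lacks an activation domain, differed by 3.05 in pool 1, -0.09 in pool 2 and 0.92 in pool 3, with a WT signal well above background on 3 of 4 arrays, all but the second of pool 1. The mean difference was 0.27 for Mafk and -0.38 for Batf3, and Fosl1 did not pass the filter.

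Of the 18 upstream regulators, which include Srf, its Mrtf and Elk partners, Creb1 and its coactivators and the MAP kinases, 7 were higher and 11 lower, 0 passed limma's test with or without the block, 0 had an unadjusted p under 0.05, and the median difference was -0.07. Among those with the smallest p, the difference was 0.26 for Elk3, a ternary complex factor that binds with Srf. It was -0.20 for Crtc1, a CREB coactivator, and -0.32 for Mrtfb, an Srf coactivator.

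Among 9 dimer partners, co-repressors and MAP kinase phosphatases, 7 were higher and 2 lower, 0 passed limma's test with or without the block, 1 (Dusp5) had an unadjusted p under 0.05, and the median was 0.15. Dusp5, a nuclear MAP kinase phosphatase, differed by 0.94 in pool 1, -0.04 in pool 2 and 1.48 in pool 3. Dusp4, a related phosphatase, differed by 1.16 in pool 1, -0.27 in pool 2 and 0.87 in pool 3. Arnt2, the dimer partner of Npas4, differed by 0.23 over the 3 pools and Dusp2 by -0.30.

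Of 22 other rapid primary response genes, 20 were measured (Nr4a3 and Zfp36 did not pass the filter), with 16 higher and 4 lower and a median of 0.35. By limma 0 passed without the block and 1 with it, and 5 had an unadjusted p under 0.05. Of these 5, 1 passed the filter through the CKO arrays alone, being well above background on 2 of 4 WT arrays. Gadd45b, linked to active DNA demethylation in neurons, was at 3.04, 1.17 and 2.08 in CKO pools 1, 2 and 3, against 1.23, 0.83 and 0.37 in WT pools 1, 2 and 3. CKO pool 2 lay just below the highest WT pool. The difference was 1.29 (SE 0.42), with a limma adjusted p of 0.708, and of 0.049 with the block. Gadd45g (0.67), Trib1 (0.73) and Csrnp1 (0.88) were the next by p, and Csrnp1, an AXUD1-family transcription factor, differed by 1.56 in pool 1, 0.03 in pool 2 and 1.05 in pool 3.

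The 14 activity-regulated effectors had 11 higher and 3 lower, with a median of 0.35. By limma 0 passed without the block and 2 with it, and 6 had an unadjusted p under 0.05, of which 5 were higher. Inhba, which encodes the activin A subunit, was at 2.14, -1.73 and 0.55 in CKO pools 1, 2 and 3, against -1.56, -2.24 and -3.06 in WT pools 1, 2 and 3. CKO pools 1 and 3 again stood above every WT pool, and CKO pool 2 lay just below the highest of them. The difference was 3.71 in pool 1, 0.51 in pool 2 and 3.61 in pool 3, with a mean of 2.61 (SE 0.84) and a limma adjusted p of 0.680, or 0.047 with the block. Penk, encoding the enkephalin precursor, went the other way, at 2.38, 1.96 and 2.01 in CKO pools 1, 2 and 3, against 3.12, 2.94 and 2.80 in WT pools 1, 2 and 3. It was lower in all 3 pool numbers by a similar amount, with a mean difference of -0.83 (SE 0.15) and a limma adjusted p of 0.184, or 0.023 with the block. Ptgs2, encoding cyclooxygenase-2, differed by 2.29 in pool 1, -0.18 in pool 2 and 2.30 in pool 3, with a WT signal well above background on 3 of 4 arrays, all but the second of pool 1. Rgs2, a regulator of G-protein signalling, differed by 0.88 in pool 1, 0.11 in pool 2 and 1.50 in pool 3.

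**Figure D4:**
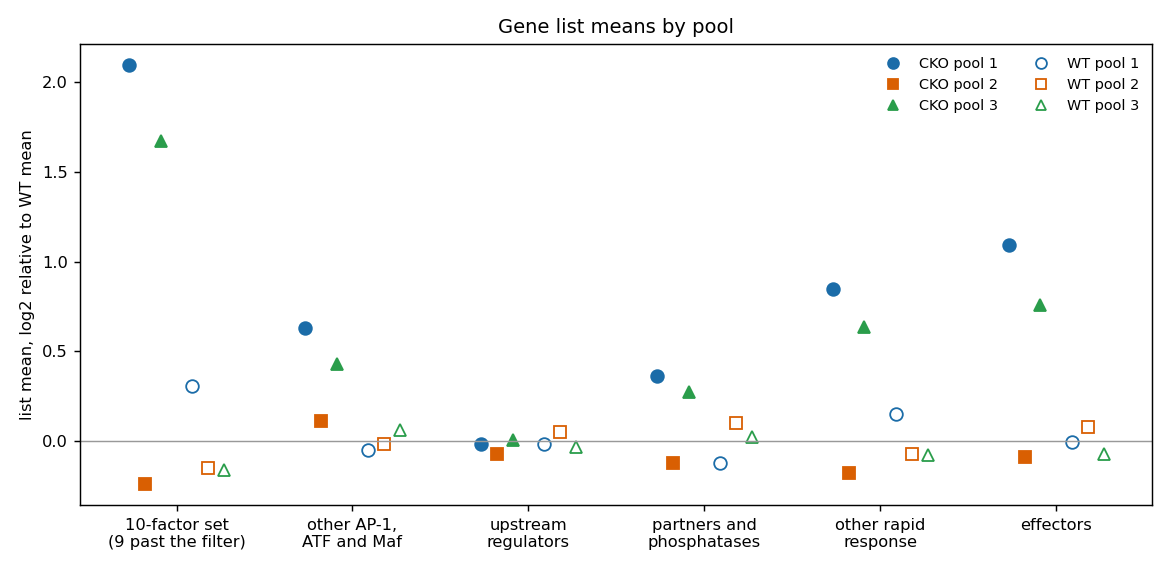
Mean of each gene list in each pool (vertical axis, log2 relative to the mean of the WT pools), with CKO pools as filled and WT pools as open symbols. CKO pools 1 and 3 are at 0.63 and 0.43 for the other AP-1, ATF and Maf genes. They are at 0.85 and 0.63 for other rapid response genes and 1.09 and 0.76 for effectors. CKO pool 2 is at 0.11, -0.18 and -0.09 for these lists in that order. Partners and phosphatases are at 0.36, -0.12 and 0.27 in CKO pools 1, 2 and 3, and the upstream regulators stay between -0.07 and 0.05. Atf3 and Maff have the largest differences of the AP-1, ATF and Maf list in pools 1 and 3. The median difference of that list is 0.35 in pool 1 and -0.06 in pool 3.

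Markers of 10 cell types were read on the same arrays. No marker list had CKO pools 1 and 3 above CKO pool 2 and all WT pools, the arrangement of the members. All 4 measured dentate granule neuron markers of 5 were lower in CKO, as were 9277 of all 18334 genes tested. Their list means were -0.68, -0.69 and -0.61 in CKO pools 1, 2 and 3 relative to the WT mean. Their summed linear signal was 4.16 to 4.39 in CKO pools against 5.77 to 7.56 in WT pools, in units of the array's 75th percentile. The share of all genes with all CKO pools below all WT pools was not counted. The shift of these markers was alike in CKO pools 1, 2 and 3, and its part in the members' values was not tested. Astrocyte markers (5 of 5 measured) summed to 21.5 to 27.0 in CKO pools and 21.6 to 22.3 in WT pools, with the highest value in CKO pool 2. Microglia markers (5 of 5) summed to 16.7 to 21.2 in CKO pools and 16.8 to 25.0 in WT pools. Choroid plexus markers (5 of 5) summed to 64.9 to 92.3 in CKO pools and 30.5 to 83.6 in WT pools, with the lowest value in WT pool 1, whose part in the pool 1 differences was not tested. Red blood cell markers (3 of 5 measured) summed to 46.5 to 68.4 in CKO pools and 42.2 to 81.2 in WT pools. The list means of the other 5 types (pyramidal, CA3 and CA2, and interneurons, oligodendrocytes and endothelial cells) ran from -0.23 to 0.33 relative to the WT mean. Oligodendrocyte list means were 0.33, 0.21 and 0.12 in CKO pools 1, 2 and 3, against 0.11, -0.05 and -0.06 in WT pools 1, 2 and 3. All 5 oligodendrocyte markers were higher in CKO, as were 49.4% of all genes. The part of that difference in the members' values was not tested. Over all 10 marker lists, 3 single markers, named after their values were seen, passed with pool number as a block. Of all genes tested, 0.562% did so. Wfs1 differed by -0.91 (SE 0.12; limma adjusted p = 0.118, and 0.0164 with the block), C1ql2 by -1.10 (SE 0.30; 0.476, and 0.0470 with the block) and Gfap, an astrocyte intermediate filament, by 0.68 (SE 0.18; 0.503, and 0.0464 with the block). The Wfs1 difference was -0.78 in pool 1, -1.04 in pool 2 and -0.92 in pool 3, and that of Gfap was 0.62 in pool 1, 0.81 in pool 2 and 0.61 in pool 3.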

How the data were processed

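Whole-hippocampus RNA was hybridised in the Cy5 channel of 8 Agilent 1-colour arrays on 2 slides. Per the file headers, the deposited processed signal is an intensity, background-subtracted and detrended within each array and not normalized between arrays (Feature Extraction 11.5 per the submitters' processing notes). Flags for outlier spots and for spots well above background, other deposited columns, were used as filters. Precision is limited by the number of arrays.

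From these intensities log2(signal) minus the log2 of the 75th percentile of each array was computed. Outlier spots were left out, spots of a probe were averaged, then the arrays of pool 1, and each gene was read by its brightest probe. Of 39429 probes, 27508 were named through an accession, 3544 by symbol, 404 by synonym and 7973 by the file's name. Genotypes were compared over 18334 genes by the two-sided test of limma 3.58.1 (R 4.3.3; lmFit, and eBayes with a trend), adjusted by Benjamini-Hochberg and tested on simulated data. With 3 pools against 3 the smallest exact p is 0.1. The text names all members, Ctcf, up to 4 genes of each pathway list by p, and the 6 genes most like the members by Pearson's r. A gene that this rule takes is not reported here. The members and lists were chosen with earlier results of these data known. Deviations from the genotype means went together in pools of one number (r = 0.55, 0.33 and 0.13 across genes for pools 1, 2 and 3, against at most 0.12 between other pools), so pool number was used as a block in an alternative. With first arrays alone these were 0.09, 0.08 and 0.12. The labels name no link beyond sex and age makeup, and same-numbered pools also shared slides. The build in the headers, mm9, is not that of the RefSeq promoters. Alternatives covered scaling, background correction, the authors' value table (linear intensities), filters, blocks, slides, and leaving out arrays and pools.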

Additional observations from a re-analysis of the deposited data

Results flagged for a closer look

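In 5 of the 9 members that passed the filter, the difference between genotypes had opposite signs in pool 3 and pool 2. All 9 were positive in pool 3, so these 5 are the members with a negative difference in pool 2. Pool 3 held 3 males per genotype and pool 2 held 3 females per genotype. Over all genes, 57.9% of differences were positive in pool 2 and 46.3% in pool 3. The share of all genes with opposite signs was not counted, so 5 of 9 is a description only. The difference, CKO minus WT, was 0.67 in pool 3 and -0.13 in pool 2 for Jun, which is 0.79 apart. For Junb it was 1.65 in pool 3 and -0.06 in pool 2, which is 1.72 apart. For Egr1 it was 0.72 in pool 3 and -0.61 in pool 2, which is 1.33 apart. For Egr4 it was 1.42 in pool 3 and -0.27 in pool 2, which is 1.68 apart. For Npas4 it was 3.06 in pool 3 and -0.46 in pool 2, which is 3.53 apart. These differences between pools were not tested, since each sex is held by 1 pool of each genotype, and sex, age, slide and pool cannot be told apart. Pool 1, of 2 females and 1 male per genotype, had positive differences in all 5. The pool 2 values of Junb and Jun were smaller in size than the gap between the 2 arrays of WT pool 1. That gap was 0.57 for Junb and 0.20 for Jun. The other 4 members had positive differences in both pools 2 and 3. Among them, Fos was at 3.23 in pool 3 and 0.17 in pool 2, and Fosb at 2.84 in pool 3 and 0.24 in pool 2.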

How the results depend on the processing

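Under 21 alternatives, all 188 differences of the 9 members were positive, and 2 passed the threshold, Fos and Npas4 without CKO pool 2. The median of the members ran from 0.62 to 1.53, and the count of members called was 0 to 2 when 1 pool was left out and 0 in all other settings. Jun ran from 0.05 to 0.51 and Fos from 1.50 to 3.43. Pool number as a block (a replicate block) gave 0.562% of genes called (103 genes) against 0.0273% (5 genes), of which 0 were members, and changed no member's call. The share over all genes was 0.306% with that block and no probes with GAA repeats, 0.665% with first arrays alone, 0.584% without the second array of WT pool 1, 0.0164% with the authors' value table, 0% on slide 2 alone, and 0% to 0.115% when 1 pool was left out, the causes of which were not tested. The pool 3 median was 1.42 with the authors' value table, the pool 1 median 1.74 without the second array of WT pool 1, and the pool 2 median ran from -0.13 to 0.11. Signal over background limits Egr2, Egr3 and the second Fosl2 probe. Egr3 gave no value where all 8 arrays had to be above background.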
